A study of Mus musculus with 42 samples.

Results

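The first step of the differentiation was followed by comparing 3 arrays of day 2 (d2) cells with 3 arrays of mouse embryonic stem cells (mESCs), 6 arrays chosen by their titles out of the 42 of the series. The cells carried GFP knocked in at Gsc and RedStar knocked in at Hhex, so that cells of the primitive streak and of the anterior definitive endoderm (ADE) could be sorted later in the regimen. The mESC group was grown in ESC medium with LIF and received no treatment. The d2 group came from the same line after 2 days of the ADE regimen, which the study's scheme gives as N2B27 medium with Activin A and BMP4, and was likewise untreated. The d2 cells were harvested unsorted, since Gsc-positive cells were first isolated at d3. All values therefore describe 1 reporter line and mixed cultures, in which fewer cells of a kind and less RNA per cell cannot be told apart. The comparison addresses what changes first when mESCs leave self-renewing culture, before the Gsc reporter comes on.

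LIF keeps mESCs in a naive state by activating STAT3, which in turn maintains transcription factors such as KLF4 and TFCP2L1. When naive cells are released from this signal they pass through a formative and then a primed epiblast state, in which OCT4 and SOX2 stay on while FGF5, SOX3 and the de novo DNA methyltransferases come up. Cells that also receive Activin or Nodal, BMP and WNT signals then switch on Brachyury (T), EVX1, FGF8 and WNT3, genes of the primitive streak from which mesoderm and endoderm arise.

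Levels are given as log2 intensities of the deposited, quantile-normalised table, for the brightest probe of a gene, and differences are d2 minus ESC on the same log2 scale. Because each probe hybridises with its own efficiency, levels were not compared between genes. A gene counted as called when any probe for it reached an adjusted p no larger than 0.01 together with a log2 difference of 1.5 or more in either direction, which is 2.83-fold. The words rose and fell are used for genes whose adjusted p did not exceed 0.05, whatever the fold. A value after ± is the standard error of the fit unless SD is written. The p-values came from limma, with 1 mean per group over all 42 arrays, so that the spread of each gene was estimated from all 14 groups.

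The 6 arrays were not equally alike. The Euclidean distance over all probes was 84.9 to 99.0 between d2 arrays, 94.6 to 118.1 between ESC arrays and 108.9 to 134.4 between an ESC and a d2 array. ESC replicates 2 and 3 were farther from each other (118.1) than ESC replicate 2 was from d2 replicate 1 (108.9) or ESC replicate 3 from d2 replicate 3 (112). ESC replicate 3 and d2 replicate 3 shared a slide and a scan day, and ESC replicate 2 and d2 replicate 2 shared another slide. Between 29622 and 30951 probes were well above background on 5 of the arrays and 37543 on d2 replicate 3. No spot was saturated. The arrays labelled ESC and d2 both had high Pou5f1, which encodes OCT4, with 13.58, 12.98 and 14.22 in ESCs and 12.83, 13.85 and 14.17 at d2. The groups overlapped, and the difference was 0.03 ± 0.73 (SE, adjusted p = 1). The endoderm markers Sox17 and Cer1 and the streak marker Mixl1 were near background in both groups.

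Of 21308 RefSeq genes measured, 67 were called higher at d2 (0.314%) and 247 lower (1.16%), so 78.7% of the calls were reductions. By the wider rule, an adjusted p up to 0.05 without a limit on the fold, 939 genes were higher (4.41%) and 980 lower (4.60%). The split of the wider rule moved with single arrays, to 464 higher and 668 lower without ESC replicate 1, 486 and 706 without d2 replicate 1, 536 and 698 without d2 replicate 3, and 574 and 805 with the 6 arrays alone. The median difference over all genes was 0.02. The brightest probe itself was called for 59 of the higher and 236 of the lower genes, with median differences of 2.07 and -2.11. Within the 2 shared slides, whose arrays also entered the choice of these genes, the median increase was 1.71 on the slide of replicates 2 and 2.30 on that of replicates 3, against reductions of -2.27 and -2.04. A change of at least 8-fold was found for 7 higher and 35 lower genes.

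**Figure D1:**
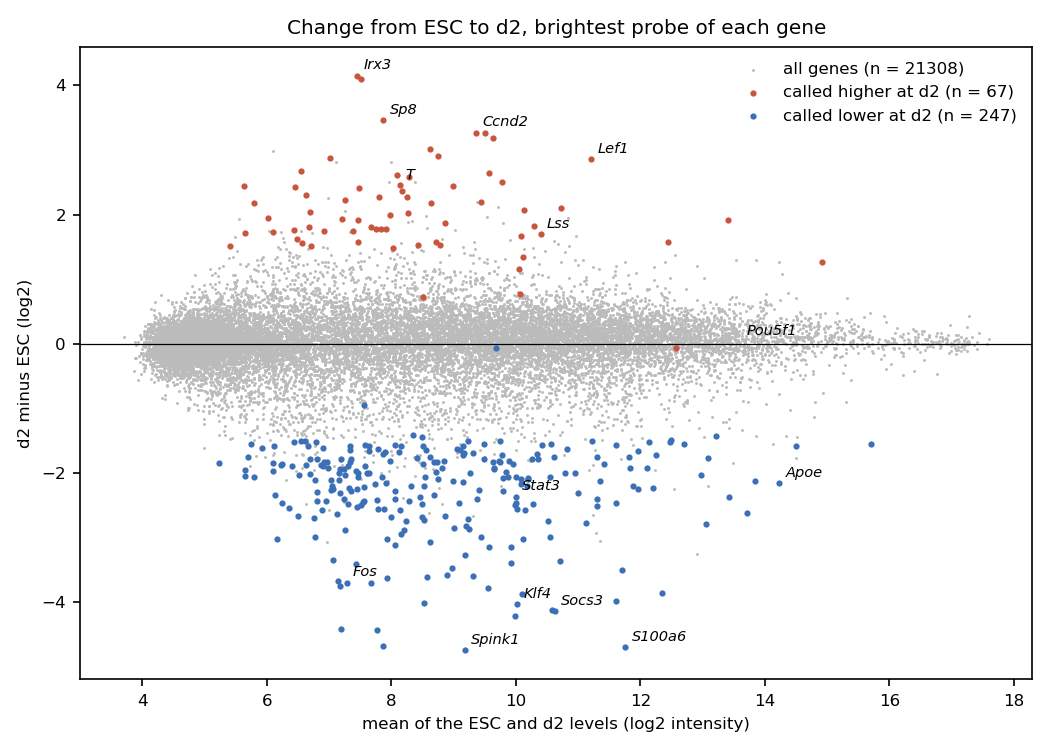
Difference between d2 and ESC (log2, vertical axis) against the mean of both levels (log2 intensity, horizontal axis) for the brightest probe of 21308 genes. The 67 genes called higher are red and the 247 called lower are blue; a few blue and red points lie near 0, being called through another probe.

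The largest increase was that of Irx3, an Iroquois homeobox gene, which was at 5.19, 5.68 and 5.28 in ESCs and at 9.29, 9.39 and 9.90 at d2. The groups were far apart, and the increase was 4.15 ± 0.45 (SE, adjusted p = 6.39e-08). Its size depended on the background correction, from 3.24 with a normexp offset of 50 to 5.39 with the scanner's processed signal. Evx1, a homeobox gene of the posterior primitive streak, went from 5.28, 5.62 and 5.47 to 10.14, 8.84 and 9.69, an increase of 4.10 ± 0.63 (adjusted p = 3.8e-05; 3.23 with the offset of 50 and 5.15 with the processed signal). Sp8, a zinc finger factor of WNT-responsive tissue, was at 6.41, 6.32 and 5.68 in ESCs and 9.65, 9.60 and 9.55 at d2. The d2 arrays differed by only 0.05 (SD) for this gene, and it rose by 3.46 ± 0.38 (2.87 with the offset of 50).

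The other 12 leading increases lay between 2.50 and 3.27. Ccnd2, which encodes the G1 cyclin D2, was at 7.98, 7.62 and 7.59 in ESCs and at 11.15, 10.24 and 11.61 at d2, so that all d2 arrays were above all ESC arrays. Cxcl12, the ligand of the receptor CXCR4, rose by 3.26 ± 0.54, from a mean of 7.87 to 11.14. Vrtn (vertnin) rose by 3.18 ± 0.51. Bcl11a, a zinc finger repressor, varied little within each group, at 7.13, 7.13 and 7.07 in ESCs and 10.16, 10.12 and 10.10 at d2. Its increase was 3.01 ± 0.33, and its relative Bcl11b was called as well (1.80 ± 0.31). Cntfr, a co-receptor for CNTF family cytokines, Fam43b, Lef1, Pcdh8, Ccno, Wnt8a, Fgf8 and Sall2 made up the rest. Pcdh8, a protocadherin, was well above background on 1 of 3 ESC arrays and on all d2 arrays, where it was at 7.87, 7.88 and 7.89, and its difference ran from 1.83 with the offset of 50 to 3.78 with the processed signal.

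The largest reduction was that of Spink1, a secreted serine protease inhibitor, which was at 11.44, 11.17 and 12.03 in ESCs and 6.73, 7.14 and 6.54 at d2, a reduction of -4.75 ± 0.47 (26.8-fold, adjusted p = 1.5e-08). S100a6, a calcium-binding protein, went from 14.14, 14.94 and 13.26 to 9.88, 9.03 and 9.34 (-4.70 ± 0.65). Ly6g6e, a GPI-anchored surface protein of the Ly6 family, went from 10.34, 9.28 and 10.31 to 5.48, 5.56 and 5.60 (-4.43 ± 0.32). For each of these the lowest ESC array was more than 3 log2 units above the highest d2 array. Emp1 (-4.68 ± 0.77), a tetraspan membrane protein, and Msln (-4.42 ± 0.56), the surface protein mesothelin, came close to background at d2, where they were well above it on 2 and 1 of 3 arrays. Socs3, Bcl3, Klf4, AU015836, Anxa2, Ahnak, Fabp3, Abca1 and Tgm1 also led, with reductions from -4.14 to -3.70. Between the offset of 50 and the processed signal the reductions ran from -3.60 to -5.38 for Ly6g6e, from -3.84 to -5.59 for Emp1, from -3.33 to -6.11 for Msln and from -2.84 to -4.72 for Abca1.

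**Figure D2:**
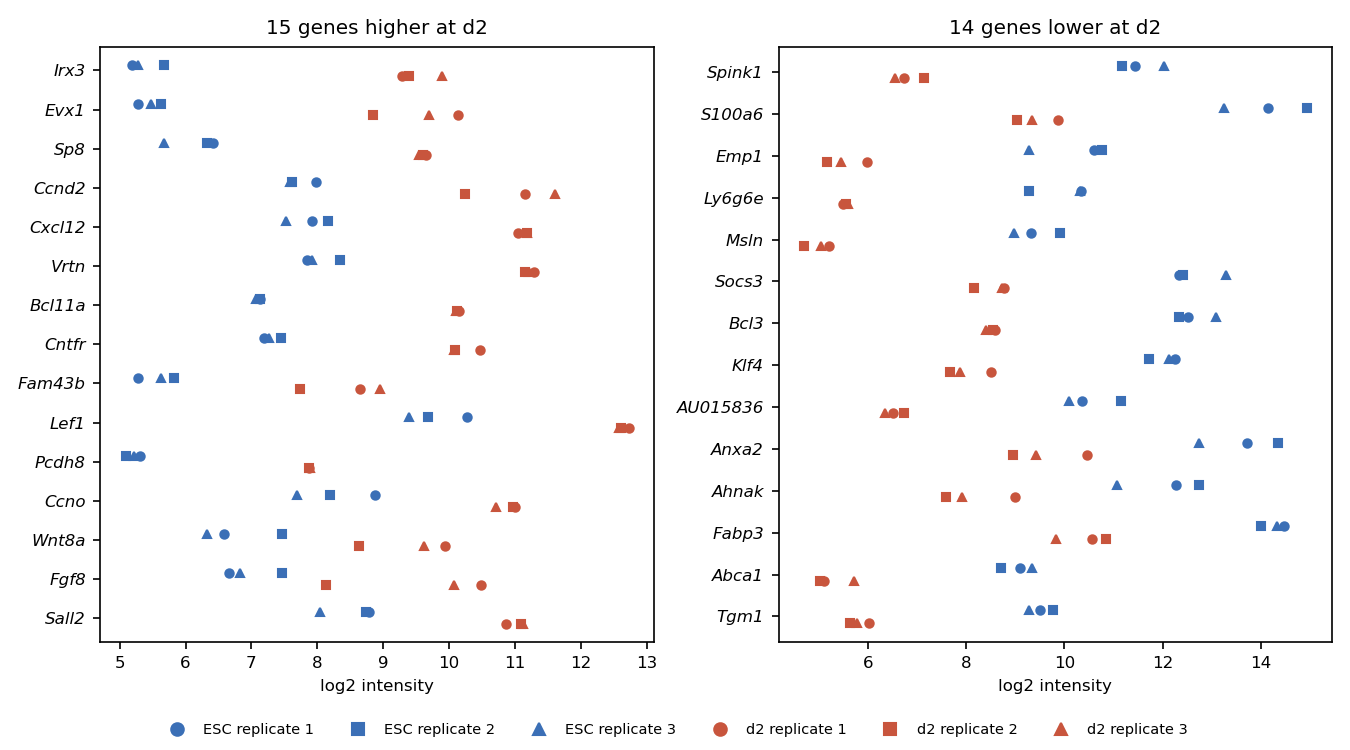
Log2 intensity on each of the 6 arrays for the 15 genes with the largest increase and 14 of the 15 with the largest reduction; blue symbols are ESC arrays, red symbols d2 arrays, and the shape gives the replicate. No gene shown has overlapping groups, and d2 replicate 2 (red square) is the lowest d2 array for genes including Evx1, Wnt8a, Fgf8, Fam43b and Ccnd2.

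Targets of LIF and STAT3 fell as a group. Of 17 genes listed and measured, 9 fell and all 9 were called, none rose, all 17 had a negative difference, and the median difference was -1.58 against 0.02 for all genes. Socs3, the feedback inhibitor of the LIF receptor, was at 12.34, 12.42 and 13.29 in ESCs and 8.77, 8.16 and 8.72 at d2, a reduction of -4.14 ± 0.39 (17.6-fold, adjusted p = 3.97e-09). Bcl3, an IκB-like cofactor, fell by 4.12 ± 0.52 from 12.51, 12.33 and 13.08 to 8.59, 8.55 and 8.41. Stat3 itself fell by 2.37 ± 0.27 from 11.14, 11.06 and 11.33 to 9.08, 8.77 and 8.59, with no overlap of the groups. Klf4, Klf5 (-2.51 ± 0.27), the kinase gene Pim3 (-2.0 ± 0.20), the adhesion molecule gene Icam1 (-1.78 ± 0.25) and the AP-1 gene Junb (-1.58 ± 0.28) were also called through their brightest probe, and Tfcp2l1 through another probe. Klf4, Klf5 and Tfcp2l1 belong to the naive factors as well. The receptor genes Lifr (-1.09 ± 0.42, adjusted p = 0.152) and Il6st (-0.85 ± 0.34, adjusted p = 0.188) did not pass the test. In the SOCS family of 8 genes, grouped after the values were seen, Socs3 alone fell and Socs4 rose (0.51 ± 0.14), while Socs2 differed by -0.21 ± 0.44 (adjusted p = 0.983).

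Promoter windows of RefSeq, from 250 bases before to 50 after a start site, were available for 15 of the 17 genes. The STAT motif TTCNNNGAA, searched on both strands, was in a window of 4 of them (26.7%), Socs3, Icam1, Cish and Gfap, and in 9.15% of all 16601 genes with a window. Among genes called lower it was in 11.8% of 178 and among those called higher in 8.51% of 47. The windows of Socs3 and Icam1, the called genes of the list that hold it, are shown with the match in capitals.
Socs3, GRCm38.p6 chr11:117969317-117969616, minus strand: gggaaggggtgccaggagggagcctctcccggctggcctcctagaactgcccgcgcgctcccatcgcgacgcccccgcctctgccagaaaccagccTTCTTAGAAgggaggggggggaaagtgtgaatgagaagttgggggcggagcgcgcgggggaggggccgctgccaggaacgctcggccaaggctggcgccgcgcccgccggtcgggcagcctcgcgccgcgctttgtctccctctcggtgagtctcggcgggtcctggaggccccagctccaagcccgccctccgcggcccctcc
Icam1, GRCm38.p6 chr9:21015690-21015989, plus strand: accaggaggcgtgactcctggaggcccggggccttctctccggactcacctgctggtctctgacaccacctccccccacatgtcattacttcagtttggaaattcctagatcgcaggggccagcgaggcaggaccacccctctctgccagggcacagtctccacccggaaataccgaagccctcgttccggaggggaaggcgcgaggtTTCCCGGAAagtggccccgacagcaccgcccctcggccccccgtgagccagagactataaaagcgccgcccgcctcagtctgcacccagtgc
The matches lay 146 and 34 bases before the start site.

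The naive pluripotency factors fell unevenly. Of 22 measured, 10 fell, 5 of them called, and none rose; the median difference was -2.07. Klf4 was at 12.26, 11.72 and 12.14 in ESCs and at 8.51, 7.66 and 7.88 at d2, a 16.3-fold reduction (-4.03 ± 0.42). Esrrb, an orphan nuclear receptor of the naive network, fell by 3.25 ± 0.86 from 14.78, 14.09 and 14.73 to 11.64, 10.96 and 11.24. Its groups lay far apart, yet its adjusted p was 0.0176. Jam2 (-2.99 ± 0.61), Tcl1 (-2.94 ± 0.87), Tfcp2l1 (-2.74 ± 0.71), Nr0b1 (-2.65 ± 0.78), Prdm14 (-2.41 ± 0.48) and Zfp42 (-2.21 ± 0.62) fell too. Tcl1 passed in 8 of 18 alternatives. Klf2 (-2.25 ± 0.85), Tbx3 (-2.20 ± 1.14) and Nr5a2 (-1.42 ± 0.76) did not pass, although no d2 array reached the lowest ESC array of any of them. Nanog was at 11.51, 11.16 and 11.54 in ESCs and 10.55, 9.92 and 10.57 at d2, a difference of -1.06 ± 0.39 (adjusted p = 0.128). With the 6 arrays alone, 16 of the 22 fell, Nanog, Klf2, Tbx3 and Nr5a2 among them (adjusted p = 0.0344, 0.00544, 0.00629 and 0.0137), and 13 were called, while the count was 5 without ESC replicate 1 and 6 without ESC replicate 3, d2 replicate 2 or d2 replicate 3. The number called was 3 without ESC replicate 1 and with the processed signal. Dppa5a, at 16.80, 16.76 and 16.49 in ESCs and 16.77, 16.86 and 16.48 at d2, differed by 0.02 ± 0.56.

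General regulators of pluripotency gave mostly small differences. Of 18 measured, 1 rose, none fell, and the median difference was 0.06. Sox2 was at 12.10, 11.53 and 12.44 in ESCs and 10.91, 11.11 and 11.27 at d2 (-0.92 ± 0.58, adjusted p = 0.555). It did not pass, although every d2 array lay below the lowest ESC array. Sall4 differed by 0.11 ± 0.21 and Utf1 by 0.39 ± 0.98. Lin28b, an inhibitor of let-7 maturation, rose by 0.79 ± 0.22.

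Genes of the formative and primed epiblast rose. Of 22 measured, 10 rose, 4 of them called, none fell, and the median was 0.78. Sall2, Fgf15 and Sox3 led. Fgf15, an FGF ligand, was at 7.84, 7.40 and 8.05 in ESCs and 10.11, 10.17 and 10.34 at d2 (2.44 ± 0.40). Sox3, at 9.33, 8.90 and 9.04 and then 11.25, 11.24 and 11, rose by 2.07 ± 0.36. Fgf5, the classical marker of the primed epiblast, was at 8.23, 8.47 and 7.72 in ESCs and 9.76, 10.02 and 9.90 at d2, an increase of 1.76 ± 0.50 (adjusted p = 0.0298). It passed in 11 of 18 alternatives. The kinase gene Pim2 rose by 1.94 ± 0.53 and Zic2 by 1.90 ± 0.53. Dnmt3b, already high at 14.32, 14.51 and 14.02, reached 15.58, 15.62 and 15.41 (1.26 ± 0.31), and Dnmt3a rose by 1.13 ± 0.26. On the list of 11 DNA methylation genes, Tet2, which encodes an enzyme that oxidises methylcytosine, fell by 1.16 ± 0.27, as did Prdm14, and Dnmt3a and Dnmt3b were the 2 that rose. Otx2 (1.19 ± 0.58, adjusted p = 0.332) and Pou3f1 (0.41 ± 0.70) did not pass, and ESC replicate 2 was low for Otx2 (9.63 beside 11.47 and 10.81). The count of the list was 5 without d2 replicate 1 or d2 replicate 3, and 6 without ESC replicate 3, without d2 replicate 2 or when the 33 untreated arrays were normalised alone.

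A part of the primitive streak programme was on at d2. Of 20 genes measured, 5 rose, all of them called, and none fell, with a median of 0.13. These were Evx1, Wnt8a, Fgf8, T and Wnt3. The number called was 3 without ESC replicate 1, d2 replicate 1 or d2 replicate 3, and 2 with the 6 arrays alone, where 2 members fell. T, the T-box factor Brachyury, was at 6.50, 7.16 and 7.03 in ESCs and 10.42, 7.74 and 9.90 at d2, an increase of 2.46 ± 0.52 (adjusted p = 0.00228). Replicate 2 lay just above the highest ESC array, without it the increase was 3.26, and with the 6 arrays alone the adjusted p was 0.0642. Fgf8, at 6.66, 7.47 and 6.82 and then 10.49, 8.14 and 10.07, showed the same order of the d2 arrays, as did Wnt8a, at 6.58, 7.46 and 6.32 and then 9.94, 8.64 and 9.62. Wnt3, whose product drives streak formation, varied less across d2, at 9.68, 9.09 and 9.27 against 6.58, 8.06 and 6.29 in ESCs (2.37 ± 0.54). Over all 59 increases called through the brightest probe, d2 replicate 2 was the lowest d2 array for 34, replicate 1 for 13 and replicate 3 for 12; without d2 replicate 2, 73 genes were called higher and 200 lower.

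Eomes, the T-box factor of mesendoderm, was at 7.51, 7.80 and 7.73 in ESCs and 10.01, 8.55 and 9.85 at d2. The groups did not overlap, but the difference of 1.79 ± 0.61 did not pass (adjusted p = 0.0884; 0.0292 with the 6 arrays alone). Gsc was at 4.99, 5.15 and 4.75 in ESCs and 5.14, 4.69 and 5.52 at d2. It was well above background on no ESC array and on 1 d2 array, replicate 3, and the difference was 0.15 ± 0.85 (adjusted p = 0.999). Mixl1 was well above background on none of the 6 arrays and Mesp1 on 1. No gene of the endoderm list rose or fell among 17 measured, where 8 had a positive and 9 a negative difference (limma, 1 higher and 1 lower at an unadjusted p under 0.05). Foxa2, the forkhead factor of streak and endoderm, was at 5.09, 5.51 and 5.47 and then 7.27, 6.06 and 7.91 (1.73 ± 0.65, adjusted p = 0.142). Hhex was at 8.24, 7.11 and 7.17 in ESCs and 7.10, 7.11 and 7.14 at d2, with overlapping groups (-0.39 ± 0.42), and Sox17 was well above background on 1 of the 6 arrays.

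**Figure D3:**
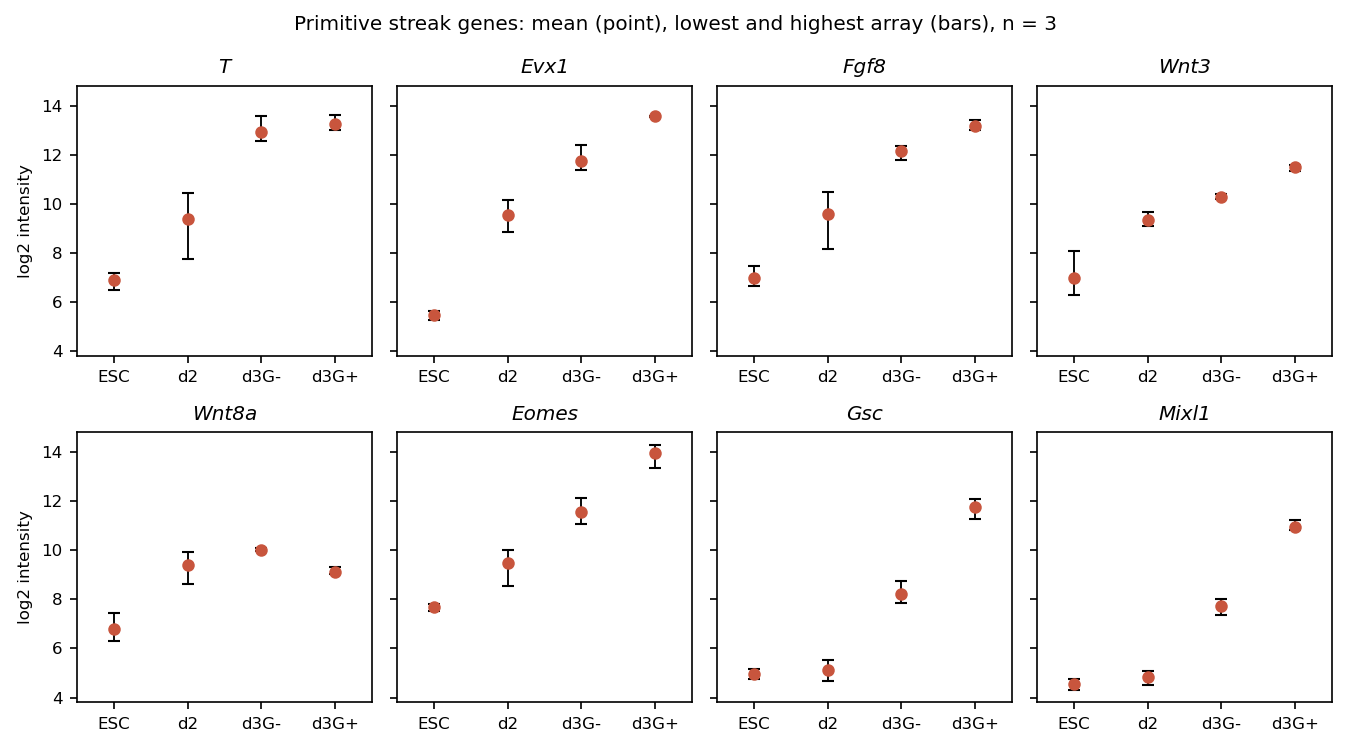
Mean log2 intensity (points) with the lowest and highest array (bars, n = 3) of 8 primitive streak genes in ESCs, d2 cells and the sorted d3G- and d3G+ cells. T, Evx1, Fgf8, Wnt3, Wnt8a and Eomes stand above the ESC arrays at d2, whereas the d2 bars of Gsc and Mixl1 overlap with those of ESCs and the d3 bars lie above them.

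Targets of WNT, of Nodal and Activin, and of BMP were counted next. In the list of WNT targets 3 of 16 rose (Sp8, Lef1 and T) and Notum, which encodes a secreted WNT inhibitor, fell by 0.67 ± 0.17. Lef1, the nuclear partner of β-catenin, was at 10.28, 9.68 and 9.39 in ESCs and 12.73, 12.62 and 12.58 at d2 (2.86 ± 0.36, adjusted p = 1.4e-06). Axin2, a widely used WNT readout, differed by 0.79 ± 0.42 (adjusted p = 0.416), and Sp5 by -0.51 ± 0.73. Of the 18 targets of Nodal and Activin, 3 rose, Fgf8 and Skil among them, and 1 fell (3 with the 6 arrays alone). Inhbb, which encodes the activin βB subunit, fell by 1.97 ± 0.41. Nodal (0.30 ± 0.24) and Lefty1 (0.21 ± 0.69) did not pass. Among 18 BMP targets, Msx1 rose by 2.51 ± 0.75 from 6.46, 7.02 and 6.62 to 9.59, 8.83 and 9.23. Dlx5, on no ESC array and on every d2 array well above background, rose as well (1.44 ± 0.21, at least 2.52-fold on the deposited scale). Its difference was 0.78 under the offset of 50 and 3.31 with the processed signal. Id1, Id2 and Id3, immediate BMP targets, differed by 0.32 ± 0.55, 0.23 ± 0.76 and 1.03 ± 0.43 and did not pass. Msx1 was not called, and its adjusted p exceeded 0.05 in 10 of 18 alternatives, among them each of the 6 that left out an array.

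Genes of the immediate early response fell. Of 18 measured, 10 fell, 6 of them called, none rose, and the median was -1.18. The number called was 2 without ESC replicate 2 and 3 with the 6 arrays alone. Fos was at 9.78, 10.72 and 6.88 in ESCs and 5.57, 5.03 and 5.70 at d2, a reduction of -3.70 ± 0.69 (adjusted p = 0.000495), which was -2.90 without ESC replicate 2 and -4.82 without ESC replicate 3. ESC replicate 3 was far below the other ESC arrays, and the same order was seen for Egr1, at 10.15, 10.81 and 8.63 and then 7.93, 6.85 and 7.78 (-2.34 ± 0.47). Ier3 (-2.18 ± 0.30) and Dusp1 (-1.73 ± 0.31) showed no such order; Ier3 was at 8.32, 8.81 and 9.34 in ESCs. Zfp36 (-1.56 ± 0.32) and Junb were called too. Feedback genes of FGF and ERK signalling showed mostly small differences, with 3 of 17 lower, namely Egr1, Fgfr4 (-0.97 ± 0.27) and Spry1 (-0.88 ± 0.23), and none higher; the count was 1 without ESC replicate 1, d2 replicate 1 or d2 replicate 3. Dusp6 differed by 0.31 ± 0.29 and Etv5 by 0.05 ± 0.29.

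A set of cytoskeletal and epithelial genes shared the low level in ESC replicate 3. Acta2, smooth muscle actin, was at 11.62, 11.86 and 9.84 in ESCs and 8.50, 6.96 and 7.05 at d2 (-3.60 ± 0.68), and Thbs1 (-2.48 ± 0.73), Ankrd1 (-1.89 ± 0.49) and Axl (-1.84 ± 0.43) of the SRF and YAP target list fell too. These were 4 of 20 measured. The count was 1 without ESC replicate 1, ESC replicate 2 or d2 replicate 2, and 9 without ESC replicate 3. Without ESC replicate 3 the differences were -4.24 for Acta2, -3.07 for Thbs1 and -2.50 for Axl. With the 6 arrays alone Axl had an adjusted p of 0.107. Among the keratins expressed in trophoblast and simple epithelia, Krt18 was at 15.29, 15.95 and 13.83 in ESCs and 13.15, 11.53 and 12.55 at d2 (-2.62 ± 0.36). Without ESC replicate 3 the differences of Krt18 and Krt8 were -3.21 and -3.08, and without d2 replicate 2 that of Krt19 was -2.43. Krt19 fell by 3.02 ± 0.48 and Krt8 by 2.40 ± 0.44, although Krt8 had an adjusted p of 0.0943 with the 6 arrays alone. Of the 14 trophoblast genes 6 fell, these keratins with Plet1, Peg10 and Tead4, and none rose, whereas the trophoblast regulator Cdx2, also a streak and WNT target gene, was at 7.19, 8.33 and 7.17 and then 9.92, 8.46 and 10.23 (1.97 ± 0.73, adjusted p = 0.131).

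Markers of fibroblasts were read beside these genes. Of 17 listed, 3 fell and none rose, Col1a2 (-1.89 ± 0.51), Col6a1 (-1.34 ± 0.38) and S100a4 (-1.26 ± 0.36). The median level of the list was 6.63, 6.71 and 6.03 on the ESC arrays and 5.90, 5.49 and 5.67 on the d2 arrays, so it too was lowest among ESC arrays in replicate 3. Col1a1 was at 9.42, 8.90 and 6.54 in ESCs and 6.23, 5.49 and 5.41 at d2 (-2.58 ± 0.95, adjusted p = 0.124). Among other members of the list, Postn and Lum were well above background on none of the 6 arrays and Prrx1 on 1. Thy1 differed by 0.26 ± 0.40. The part of these markers in the reductions was not tested. Without ESC replicate 1, ESC replicate 2 or d2 replicate 2 no member of the list fell, and without d2 replicate 1 the count was 1.

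Basement membrane and matrix genes formed the other large reduction. Of 19 measured, 10 fell, 2 of them called, none rose, and the median was -0.98. Lama1, the laminin α1 chain, was at 11.59, 11.27 and 12.02 in ESCs and 8.08, 8.47 and 8.15 at d2 (-3.39 ± 0.67). Nid1, nidogen, which links laminin to collagen IV, went from 11.44, 10.98 and 11.04 to 8.12, 8.23 and 7.66 (-3.15 ± 0.53). In neither was ESC replicate 3 the lowest ESC array, as it was for Fn1, Col4a2, Sparc, Hspg2, Timp3 and Lamc1. Fn1 (-1.85 ± 0.57), Col4a2 (-1.76 ± 0.53), Sparc (-1.43 ± 0.28), Plod2 (-1.33 ± 0.26), Hspg2 (-1.30 ± 0.22), Timp3 (-0.98 ± 0.27) and Lamc1 (-0.93 ± 0.20) fell as well. Fn1 passed in 9 and Col4a2 in 7 of 18 alternatives. The count was 6 without ESC replicate 1, ESC replicate 2 or d2 replicate 1, and 4 were called without ESC replicate 3. Cadherins and genes of epithelial-to-mesenchymal transition did not pass in either direction among 17 (limma, 0 higher and 0 lower at an unadjusted p under 0.05), with Cdh1 at -0.31 ± 0.59, Cdh2 at 0.52 ± 0.44 and Snai1 at -0.72 ± 0.66.

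The most uniform response was in cholesterol synthesis. All 25 genes measured had a positive difference, 22 rose, 2 were called, and the median was 1.07, against 4.41% of all genes that rose. Hmgcs1, the enzyme that makes HMG-CoA, was at 12.58, 13.32 and 12.74 in ESCs and 14.29, 13.93 and 14.34 at d2 (1.30 ± 0.16, adjusted p = 1.18e-06). Fdps, which makes farnesyl diphosphate, rose by 1.29 ± 0.14, Sqle, squalene epoxidase, by 1.21 ± 0.17, and Lss, lanosterol synthase, by 1.70 ± 0.24, from 9.43, 9.67 and 9.57 to 11.62, 10.84 and 11.30. Dhcr7 (1.49 ± 0.24), at the end of the pathway, rose too. Insig1, a sterol-regulated retention factor, rose by 1.24 ± 0.22. The count of genes that rose stayed between 19 and 23 in all 18 alternatives, and the number called was 5 without ESC replicate 2. ESC replicate 2 was the highest ESC array for most of these genes, with a list median of 9.99 beside 9.67 and 9.59, and below the d2 medians of 11.20, 10.74 and 10.92.

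**Figure D4:**
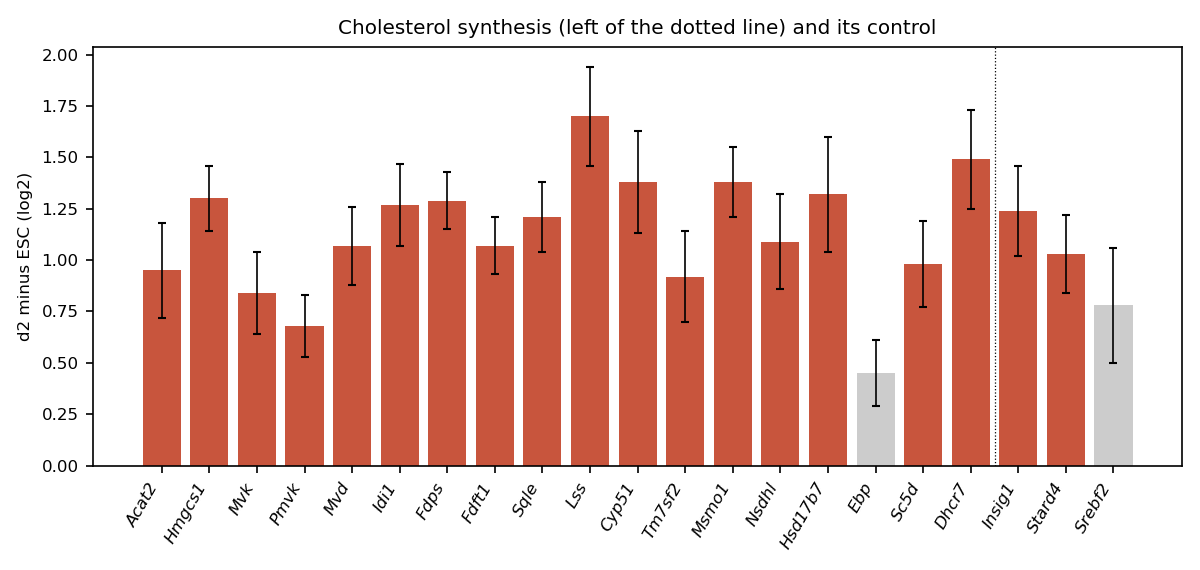
Difference between d2 and ESC (log2, bars) with its standard error for 21 of the 25 genes of the list, ordered along the pathway, with genes of its control right of the dotted line. All bars point up; red bars have an adjusted p not above 0.05 (brightest probe) and grey bars do not.

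Windows were available for 17 of these promoters. The sterol element TCACNCCAC was in that of Hmgcs1 alone (5.88%, against 1.4% of all genes with a window). The letters CCAAT, the motif of NF-Y, on either strand, were in 16 of the 17 (94.1%), all except Acat2, against 42.1% of all genes and 48.9% of those called higher. They were also in 80% of 15 cell cycle genes and 80% of 10 unfolded protein and heat shock genes. The windows of Hmgcs1, which holds both, and of Lss, a called gene of the list, are shown with each match in capitals (ATTGG is the reverse complement of CCAAT). The Lss window holds a CCAAT match only.
Hmgcs1, GRCm38.p6 chr13:119690101-119690400, plus strand: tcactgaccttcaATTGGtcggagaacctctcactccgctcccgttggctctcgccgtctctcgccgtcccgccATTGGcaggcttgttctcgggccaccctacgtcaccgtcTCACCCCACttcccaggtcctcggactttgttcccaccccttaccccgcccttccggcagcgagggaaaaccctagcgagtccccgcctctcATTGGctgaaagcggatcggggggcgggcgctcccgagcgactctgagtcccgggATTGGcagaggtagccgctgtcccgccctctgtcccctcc
Lss, GRCm38.p6 chr10:76531355-76531654, plus strand: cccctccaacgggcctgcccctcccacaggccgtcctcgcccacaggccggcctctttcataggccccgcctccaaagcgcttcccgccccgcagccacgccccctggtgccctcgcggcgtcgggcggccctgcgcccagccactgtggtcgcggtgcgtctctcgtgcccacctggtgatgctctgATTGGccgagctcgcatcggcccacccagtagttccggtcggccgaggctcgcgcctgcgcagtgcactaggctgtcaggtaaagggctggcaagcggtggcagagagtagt

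Fatty acid synthesis followed, with 6 of 14 genes higher, none called, none lower, and a median of 0.54. Scd1, stearoyl-CoA desaturase, was at 9.12, 9.87 and 9.60 and then 11.03, 10.73 and 11.27 (1.48 ± 0.23). Fads2 rose by 1.27 ± 0.20, Fasn, fatty acid synthase, by 1.11 ± 0.20 and Acaca by 0.75 ± 0.18, and Scd2 and Elovl5 passed as well. Some genes of lipid handling fell, and they were chosen after their values were seen. The cholesterol exporter Abca1 was at 9.09, 8.70 and 9.35 in ESCs and 5.10, 5.03 and 5.72 at d2 (-3.76 ± 0.46). Apoe, the apolipoprotein that accepts exported lipid, fell by 2.16 ± 0.35 from 15.43, 15 and 15.49 to 13.12, 13.32 and 13.00. The lipid droplet protein Plin2 (-2.49 ± 0.35), the fatty acid binding protein Fabp3 (-3.86 ± 0.41) and the kinase Pdk4 (-2.11 ± 0.30) fell as well. Of 10 LXR targets 2 fell, and of 12 PPAR targets 4 fell, and none rose in either family. The median differences were -0.18 and -0.38, and 4 LXR targets and 1 PPAR target had a positive difference. Abcg1 did not pass (limma, -1.13 ± 0.86, adjusted p = 0.707).

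Glycolysis and hypoxia response genes fell in part. Of 17 glycolysis genes, 6 fell, 2 of them called, and none rose. Slc2a1, the glucose transporter GLUT1, was at 14.82, 15.32 and 14.55 in ESCs and 12.67, 12.94 and 12.71 at d2 (-2.13 ± 0.36). Pfkp (-1.83 ± 0.37), Slc2a3 (-1.44 ± 0.36), Hk2 (-1.14 ± 0.28), Pgk1 (-0.91 ± 0.20) and Pfkl (-0.83 ± 0.25) fell too. Of 15 hypoxia response genes, 4 fell, 2 of them called. These were Ndrg1, at 9.84, 10.05 and 10.29 and then 8.17, 7.82 and 7.80 (-2.13 ± 0.36), the mitophagy gene Bnip3 (-1.43 ± 0.36), P4ha1 (-1.41 ± 0.33) and Kdm3a (-0.88 ± 0.20). The core of the hypoxia element, ACGTG, was in the windows of 10 of 13 genes of this list (76.9%), of 11 of 16 glycolysis genes (68.8%) and of 24.1% of all genes. It was in 20.8% of 178 genes called lower, and in 61.1% of 18 germline genes, a list in which no gene passed. The window of Bnip3, a gene of the list called through another of its probes, is shown with the element in capitals, where the matches on both strands overlap.
Bnip3, GRCm38.p6 chr7:138909457-138909756, minus strand: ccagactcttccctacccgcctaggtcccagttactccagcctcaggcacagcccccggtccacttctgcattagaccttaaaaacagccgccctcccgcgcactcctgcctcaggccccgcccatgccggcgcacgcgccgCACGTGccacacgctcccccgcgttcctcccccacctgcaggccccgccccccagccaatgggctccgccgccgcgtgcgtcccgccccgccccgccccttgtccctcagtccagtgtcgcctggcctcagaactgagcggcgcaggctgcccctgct

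In several programmes few or no genes passed. No gene passed among 25 amino acid response (ATF4) genes, 14 oxidative stress (NRF2) genes, 9 metallothioneins and zinc genes, 22 germline genes and 8 cyclin-dependent kinase inhibitors, and their medians lay between -0.08 and 0.29; with the 6 arrays alone 3 ATF4 genes rose and 1 fell. At an unadjusted p under 0.05 the limma counts were 5 higher and 1 lower for ATF4 and 4 higher and 0 lower for NRF2. They were 0 higher and 2 lower for metallothionein and zinc genes. For germline genes they were 4 higher and 0 lower, and for inhibitor genes 1 higher and 1 lower. Over all 21308 genes they were 2363 higher and 2099 lower. Against these shares ATF4, NRF2 and germline genes were more often higher, and metallothionein and zinc genes more often lower. These excesses were not tested. Of 20 cell cycle genes Ccnd2 rose and Ccnd3 fell (-0.89 ± 0.26). Ccnd3 passed in 9 of 18 alternatives. Among neural genes Sox1, an early neural and epiblast marker, rose by 1.09 ± 0.19 from 6.42, 6.73 and 6.75 to 7.88, 7.50 and 7.79, and of 12 in all Sox1 and Zic1 rose and Map2 fell. Among 14 p53 targets Perp fell (-1.72 ± 0.33) and Trp73 rose. Hspb1 fell among 12 heat shock and unfolded protein genes (-1.56 ± 0.33). Among the 12 measured genes of the 2-cell-like state Zfp352 (-1.51 ± 0.36) and Sp110 fell. Pgk1 was the only 1 of 12 housekeeping genes that passed. By the same rule 4.41% of all genes rose and 4.60% fell. Counts of at most 1 per direction, as for cell cycle, p53, heat shock and housekeeping genes, are near that share for lists of this size.

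**Figure D5:**
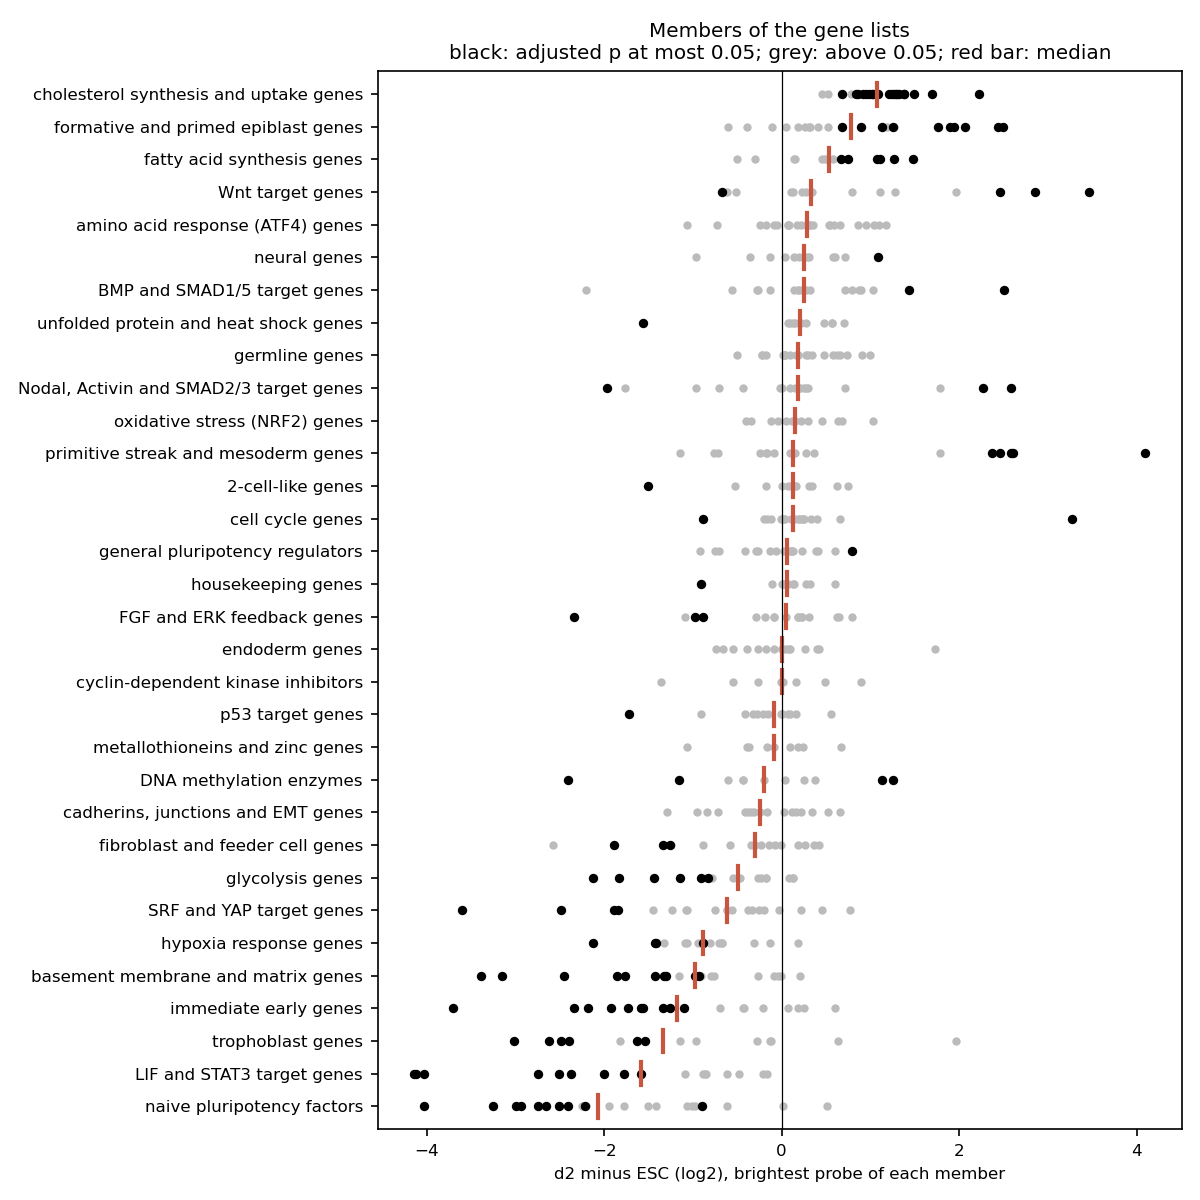
Difference between d2 and ESC (log2) of every member of the 32 gene lists, by its brightest probe. Black points have an adjusted p not above 0.05, grey points do not, and the red bar is the median, from 1.07 for cholesterol synthesis down to -2.07 for the naive pluripotency factors.

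Whole gene families, taken by symbol after the values were seen, gave the following counts. Over all genes, 4.41% rose and 4.60% fell by the same rule. Of 12 annexins, calcium-dependent membrane binding proteins, 8 fell and 5 were called. Anxa2 was at 13.72, 14.36 and 12.74 in ESCs and 10.46, 8.96 and 9.42 at d2 (-3.99 ± 0.41), and its partner S100a10 fell by 1.57 ± 0.29. Of 17 S100 genes 6 fell, S100a11 among them (-2.58 ± 0.29). Of 53 keratins 7 fell, with Krt17 (-3.63 ± 0.38) the furthest, and of 10 guanylate binding protein genes 3 fell. Of 19 WNT ligands 3 rose, the third being Wnt5b (2.02 ± 0.43), and of 22 FGF ligands Fgf8, Fgf15 and Fgf5 rose while Fgf1 fell by 1.22 ± 0.32. Of 6 Iroquois genes Irx3 and Irx5 rose, and of 39 Hox genes 2 rose, Hoxb1 and Hoxa2. The Hox count was near the share over all genes. Of 24 selenoprotein genes 3 rose, Selenoh (1.92 ± 0.15, from 12.28, 12.41 and 12.63 to 14.32, 14.24 and 14.52), Selenow (1.57 ± 0.38) and Gpx1 (1.27 ± 0.16), and none fell. No claudin passed among 23 (limma, 1 higher and 0 lower at an unadjusted p under 0.05).

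For genes not well above background in a whole group the fold is a lower limit on the deposited scale, since each array of the dim side was set to the weakest signal well above background on that array or to the probe's own signal, whichever was higher. The limit does not include sampling error or the choice of background correction. By this reading 84 genes were detected on all d2 arrays and no ESC array, 4 of them called, and 20 on all ESC arrays and no d2 array, 6 of them called. Hoxb1, an anterior Hox gene, was at 4.47, 4.45 and 4.29 in ESCs and 7.55, 5.43 and 7.56 at d2, at least 3.92-fold higher (adjusted p = 0.00806). Irx5 was at least 3.79-fold, Pgr, the progesterone receptor, at least 3.02-fold and Slc35d3 at least 3.86-fold higher. On the other side Atp6v0a4, a proton pump subunit, was at least 7.16-fold lower at d2, and Ak7, Fxyd4, D630039A03Rik and Gad1 at least 2.64 to 3.99-fold lower.

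The d2 level of the called genes was finally set beside the sorted d3 cells, as a description. The genes were chosen by the difference between these same d2 and ESC arrays. Their counts against either group are therefore tied to that choice, unlike those over all genes. Of the 59 called higher through the brightest probe, 44 had all 6 d3 arrays above all ESC arrays, as had 2540 of all 21308 genes. Among these 59 genes, 12 had all d2 arrays below all 6 d3 arrays, 19 had all d2 arrays above them and 28 overlapped. Over all genes these numbers were 2124, 1968 and 17216. Evx1 belonged to the first kind, with means of 5.46 in ESCs, 9.56 at d2, 11.73 in d3G- and 13.57 in d3G+ cells. Gsc, near background at d2 (5.12), was at 8.23 in d3G- and 11.78 in d3G+ cells. Irx3 belonged to the second kind, with 9.53 ± 0.33 (SD, n = 3) at d2 against 6.43 ± 0.32 in d3G- and 7.60 ± 0.61 in d3G+ cells. Lef1, at 12.64 at d2, overlapped with d3, at 12.55 and 13.03. Of the 236 genes called lower, 149 had all 6 d3 arrays below all ESC arrays, against 2155 of all genes. Among the 236, 104 had all d2 arrays below all d3 arrays, 20 had all d2 arrays above them and 112 overlapped. Acta2 was below, with means of 11.11 in ESCs, 7.50 at d2, 10.64 in d3G- and 11.81 in d3G+ cells. Spink1 was above, with 6.80 at d2, 5.97 in d3G- and 5.38 in d3G+ cells. Socs3 overlapped, with 8.55, 8.93 and 8.54. The d2 cells were unsorted and the d3 cells sorted, so day and sorting cannot be told apart here.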

How the data were processed

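Total RNA of the 42 samples was hybridised to Agilent one-colour arrays. The authors deposited scanner files with foreground and background intensity per spot, and a table of log2 values made by normexp background correction (offset 10) and quantile normalisation. Both steps repeated on the deposited intensity values gave log2 values correlating with the table at 0.999981 or more. Spots of a probe were averaged without spots marked as outliers, which left 23 values missing in the 6 compared arrays. Of 55681 probes, 28066 were named through RefSeq accessions, and the other 27615 entered only the adjustment. Here limma 3.58.1 in R 4.3.3 was fitted over all arrays with 1 mean per group, and p-values were adjusted over all probes (Benjamini-Hochberg). The fit was also run on simulated arrays with known changes and independent noise. These held no slide, scan day or replicate effect, so they do not test the p-values under such effects. The series description gives 3 independent experiments per group, and the number of arrays limits the precision.

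The genes named are the 15 largest called changes per direction with 1 direction in all 9 array pairs, up to 5 members per list and direction with an adjusted p up to 0.05, and Gsc, Hhex, T, Pou5f1, Sox2, Nanog, Fgf5 and Sox17. Other genes were named after their values were seen. The comparison, the 32 gene lists and the tests were chosen with earlier results of these data known. For a gene with several probes the brightest is printed. Of 91 called genes with several probes, 30 had every probe called and 4 had a probe of opposite sign. Alternatives changed the background correction, the scaling, the probe filter, the arrays fitted, the block, the gene names and the probe rule, and left out each array in turn. Some genes of these lists are not reported here.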

Additional observations from a re-analysis of the deposited data

How the results depend on the processing

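The counts were recomputed under 20 alternatives, 18 of them refits, and no gene was called in the opposite direction in any refit. The 67 genes called higher became 44 with a normexp offset of 50 (42 shared) and 101 with the processed signal minus the 75th percentile (54 shared), and ran from 43 to 73 when 1 array was left out, lowest without d2 replicate 1. The 247 genes called lower ran from 199 to 275 in the same way. The 939 higher genes of the wider rule became 574 with the 6 arrays alone and 464 to 777 without 1 array, with 464 without ESC replicate 1, 486 without d2 replicate 1 and 536 without d2 replicate 3. The 980 lower genes ran from 668 to 905. The deviations of same-numbered ESC and d2 arrays from their group means had correlations of 0.01, -0.01 and 0.45, so the numbers were not taken to pair the samples. With the replicate block 74 genes were called higher and 256 lower, 1391 rose and 1243 fell by the wider rule, and 8 SRF and YAP targets and 7 hypoxia response genes fell. With scan day as a block, chosen after seeing the data, 75 were called higher and 262 lower. Of 100 named genes with an adjusted p up to 0.05, 65 kept it in all 18 refits and 76 in those with every array, and none changed direction. Nanog passed in 4 of the 18, with the offset of 50, the 6 arrays alone, the replicate block and the scan day block. The causes of these shifts were not tested. On signal over background, 4156 genes were not well above it on any of the 6 arrays, and a change there could not be measured.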
